A study of Mus musculus with 4 samples.

Results

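The data describe 33 interferon-stimulated genes in the cell types of the mouse liver. The genes were taken by symbol from the list of 55488 features that each library shares, and all 33 symbols were found. They are Ifit1, Ifit2, Ifit3, Ifit3b, Ifi44, Ifi44l, Isg15, Rsad2, Oasl1, Oasl2, Oas1a, Oas2, Oas3, Mx1, Mx2, Irf7, Irf9, Usp18, Rtp4, Stat2, Bst2, Ifi27l2a, Ifi35, Ifih1, Dhx58, Xaf1, Zbp1, Cmpk2, Trim30a, Parp14, Ifi203, Ifi204 and Phf11d. Single-cell RNA was sequenced from 4 livers, 1 for each genotype: WT, YAPKO, TAZKO and DKO. YAPKO, TAZKO and DKO mice carry Cre recombinase under the albumin promoter together with loxP-flanked alleles of YAP, of TAZ or of both, so recombination is directed to hepatocytes (HCs) and biliary epithelial cells (BECs), while endothelial cells (ECs), Kupffer cells (KCs), hepatic stellate cells (HSCs) and leukocytes keep their alleles. HCs and the smaller non-parenchymal cells were isolated separately and mixed before loading. The labels give no treatment and no age, and the study describes its knock-out animals at 10 weeks. The question was whether differences between the libraries that are seen in ECs are also seen in HCs, myeloid cells and lymphoid cells.

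Interferons are secreted proteins that bind receptors on the cell surface and activate kinases of the JAK family, JAK1 with TYK2 for type I and type III interferons and JAK1 with JAK2 for interferon gamma. Type I and type III interferons then act through STAT2 and IRF9 on a short DNA element, the interferon-stimulated response element, in the promoters of its target genes. The products of these genes restrict viruses at several steps, and some of them, such as IRF7 and USP18, strengthen or limit the response itself. In the liver, Kupffer cells, sinusoidal endothelial cells and plasmacytoid dendritic cells (pDCs) meet microbial products that arrive with portal blood, and pDCs are specialized producers of type I interferon.

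The members lie on 14 chromosomes. In the GENCODE annotation of GRCm38, 17 of them form 7 groups of members within 500 kb of each other: the 4 Ifit genes on chromosome 19 within 99.3 kb, Ifi44 and Ifi44l on chromosome 3 within 32.0 kb, Rsad2 and Cmpk2 on chromosome 12, Mx1 and Mx2 on chromosome 16, Ifi203 and Ifi204 on chromosome 1, and Oasl1 with Oasl2 and Oas1a with Oas2 and Oas3 on chromosome 5. Promoters from RefSeq (GRCm38.p6), the 250 bases before the start of a transcript, were matched by symbol for 23 members. The core letters of the response element, GAAA, then any 2 bases, then GAAA, read on both strands (TTTC, any 2 bases and TTTC on the other), were found in 11 of these 23 genes, or 47.8%. Among all 27025 genes with such a promoter, 936 held them, or 3.46%. The 11 genes were Ifit1, Ifit3, Ifit3b, Isg15, Rsad2, Oas1a, Oas3, Stat2, Bst2, Trim30a and Ifi203. The letters were not in this window of Ifit2, Ifi44, Ifi44l, Oasl1, Oasl2, Irf7, Irf9, Ifi35, Ifih1, Xaf1, Cmpk2 and Phf11d, which says nothing of sites elsewhere. The 6 promoters below belong to members whose levels the comparisons return to, and are written 5′ to 3′ on the gene's strand with each match in capitals and all other bases in lower case.
Ifit1 (chr19:34640639-34640888, plus strand): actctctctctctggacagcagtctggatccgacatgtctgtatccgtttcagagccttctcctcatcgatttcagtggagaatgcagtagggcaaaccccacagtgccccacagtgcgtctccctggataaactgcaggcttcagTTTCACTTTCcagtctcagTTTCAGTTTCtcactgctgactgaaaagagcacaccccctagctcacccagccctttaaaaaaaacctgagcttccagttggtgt
Ifit3 (chr19:34583279-34583528, plus strand): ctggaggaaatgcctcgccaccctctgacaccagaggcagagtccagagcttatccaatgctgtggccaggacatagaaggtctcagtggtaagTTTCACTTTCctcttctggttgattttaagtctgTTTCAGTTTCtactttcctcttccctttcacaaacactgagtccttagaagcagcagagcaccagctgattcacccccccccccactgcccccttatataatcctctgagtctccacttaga
Isg15 (chr4:156200819-156201068, minus strand): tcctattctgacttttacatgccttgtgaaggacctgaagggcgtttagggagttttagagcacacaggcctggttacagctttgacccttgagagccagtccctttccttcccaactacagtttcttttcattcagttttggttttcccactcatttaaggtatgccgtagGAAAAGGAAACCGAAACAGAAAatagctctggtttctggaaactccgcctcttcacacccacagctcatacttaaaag
Bst2 (chr8:71537473-71537722, minus strand): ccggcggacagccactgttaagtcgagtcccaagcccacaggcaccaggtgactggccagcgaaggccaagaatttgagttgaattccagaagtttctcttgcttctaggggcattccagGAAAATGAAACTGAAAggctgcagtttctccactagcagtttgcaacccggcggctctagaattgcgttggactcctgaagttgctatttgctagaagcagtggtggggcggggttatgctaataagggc
Rsad2 (chr12:26456453-26456702, minus strand): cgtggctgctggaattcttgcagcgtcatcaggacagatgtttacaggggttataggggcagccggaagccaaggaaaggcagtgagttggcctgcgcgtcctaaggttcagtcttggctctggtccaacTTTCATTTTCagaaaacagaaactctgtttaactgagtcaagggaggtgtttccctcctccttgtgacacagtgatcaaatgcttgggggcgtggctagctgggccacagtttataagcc
Stat2 (chr10:128270248-128270497, plus strand): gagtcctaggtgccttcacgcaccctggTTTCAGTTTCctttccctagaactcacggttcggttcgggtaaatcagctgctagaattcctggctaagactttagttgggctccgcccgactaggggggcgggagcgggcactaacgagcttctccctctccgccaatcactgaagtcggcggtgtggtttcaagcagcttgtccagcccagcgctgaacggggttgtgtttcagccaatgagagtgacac
Ifit1, Ifit3 and Bst2 each held 2 matches, those of Bst2 overlapping. Isg15 held 3 overlapping matches, and Rsad2 and Stat2 held 1 each. Bst2 and Isg15 were lower in the TAZKO library than in WT in most cell types, and Stat2 was not lower past the fold in that library in any.

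Barcodes were kept where they had between 500 and 6000 genes and no more than 10% of UMIs from mitochondrial genes, which left 7155 cells in WT, 6275 in YAPKO, 8638 in TAZKO and 8294 in DKO. A UMI is a tag that counts 1 captured RNA molecule near its 3′ end. The median number of UMIs per kept cell was 4618, 7337, 3555.5 and 5952.5 in that order, and 94 of 30267 different barcode sequences occurred in more than 1 library. In HCs, Yap1 was at 21.4, 4.77, 47.3 and 4.55 UMIs per 1000000 UMIs of the cells (CPM) and Wwtr1, which encodes TAZ, at 5.58, 13.6, 2.73 and 2.51, so each targeted gene was lower in the libraries labelled for its deletion than in WT. Clusters were made without the members and named by marker genes, and 10 cell types had at least 50 cells in every library, from 62 neutrophils in TAZKO to 3043 HCs in the same library. The cells called HSCs held their own markers at 10754 to 13806 CPM, against 353 to 449 in ECs, and endothelial markers at 12781 to 17041 CPM, against 20499 to 21733 in ECs. The endothelial sum was above the sum of their own markers in WT, YAPKO and TAZKO, 43.7% of these cells were also HSCs by marker sums alone, and values of these cells are therefore not independent of those of ECs. Endothelial markers also summed to 3810 to 9251 CPM in neutrophils and 3568 to 5203 CPM in pDCs. Cells that carried markers of HCs or ECs were left out as an alternative, which left 649 of 982 pDCs and under 50 neutrophils and HSCs in at least 1 library, so for the latter pair the part of these markers was not tested.

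With a single library for every genotype, nothing could be tested against variation between mice. Each comparison below is between libraries, has no replicate check, and carries an exact 95% interval that covers counting error only. A member is called past the fold where its level was at least 1.5-fold higher or lower than in WT, the interval excluded no difference, and it had at least 50 UMIs over the 4 libraries in that cell type. The 3 comparisons share the WT library, so their values are set side by side only, and differences between cell types in a ratio were not tested. Levels are CPM in the summed cells of a type, without division by transcript length.

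Summed over the 33 members, the transcripts were most abundant in KCs and pDCs and least abundant in HCs by the median of the 4 libraries. In KCs the sum was 8381 CPM in WT, 8620 in YAPKO, 7753 in TAZKO and 5073 in DKO. In pDCs it was 8319, 8577, 7650 and 7045 CPM. DKO was the lowest library in both types. Macrophages followed with 7878, 7029, 6567 and 5126 CPM, and in DKO they stood just above KCs. ECs held 5219, 6102, 3943 and 3601 CPM, and HCs held 711, 860, 686 and 681 CPM. Every EC library was above every HC library. HSCs had sums of 4280 to 7322 CPM, with YAPKO above the macrophages of that library, neutrophils of 3735 to 6345, conventional dendritic cells (cDCs) of 2598 to 3993, T cells of 2070 to 2883 and B cells of 1899 to 2323.

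**Figure D1:**
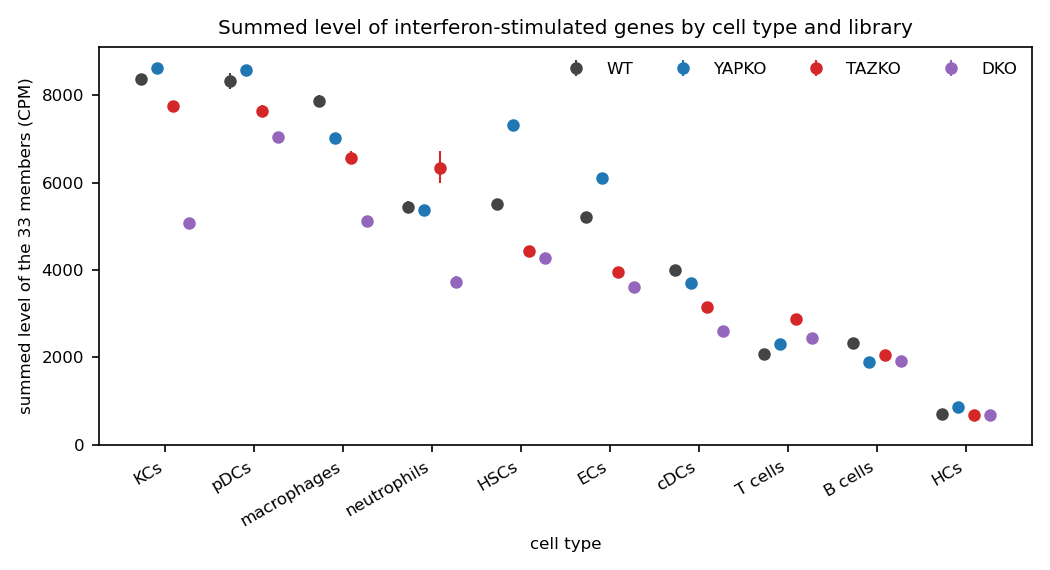
Summed level of the 33 interferon-stimulated genes, in UMIs per 1000000, in each cell type and library. Each dot is 1 library and the bars are exact 95% Poisson intervals; KCs, pDCs and macrophages stand highest by their medians, HCs lowest, and the DKO dot is the lowest of the 4 in ECs and KCs.

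A few members carried much of each sum. In ECs, Bst2, Ifi203 and Ifi204 made up 48.2% of the member UMIs, and in KCs Ifi27l2a, Bst2 and Irf7 made up 54.7%. In pDCs, Bst2, Ifi27l2a and Ifi203 reached 74.9%, and in HCs Bst2, Ifih1 and Isg15 reached 58.2%. Of the 32 members other than Ifi44l, the highest median level over the 4 libraries was in KCs for 7, in neutrophils for 7, in ECs, HSCs and pDCs for 5 each, in cDCs for 2 and in macrophages for 1. The lowest was in HCs for 18. For 14 members the same type was highest in all 4 libraries, among them Irf7, Ifi204, Oas2, Oas3 and Dhx58 in KCs, Ifi203 in ECs, Bst2 and Usp18 in pDCs, and Isg15, Rsad2 and Oasl1 in neutrophils. For Oas1a, Ifi27l2a, Irf9 and Parp14 the type with the highest median was the highest in only 1 library.

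Counted over members and the 10 types, differences from WT past the fold exceeded the share over all genes upwards in the YAPKO library and downwards in TAZKO and DKO. In YAPKO, 49 of 291 combinations of member and type were higher and 8 lower, or 16.8% and 2.75%, against 8.99% and 5.03% for all genes counted the same way. In TAZKO, 50 and 54 of 297 were higher and lower (16.8% and 18.2%, all genes 20.5% and 6.36%), and in DKO 22 and 88 of 291 (7.56% and 30.2%, all genes 13.2% and 4.88%). A member counts once for each type here, and the members of 1 library are not independent of each other. When each comparison was centred on its median gene, the 121 higher and 150 lower combinations became 83 and 214. The shares over all genes above are without this centring. Below too, counts after centring or under another alternative have a share over all genes only where one is printed.

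**Figure D2:**
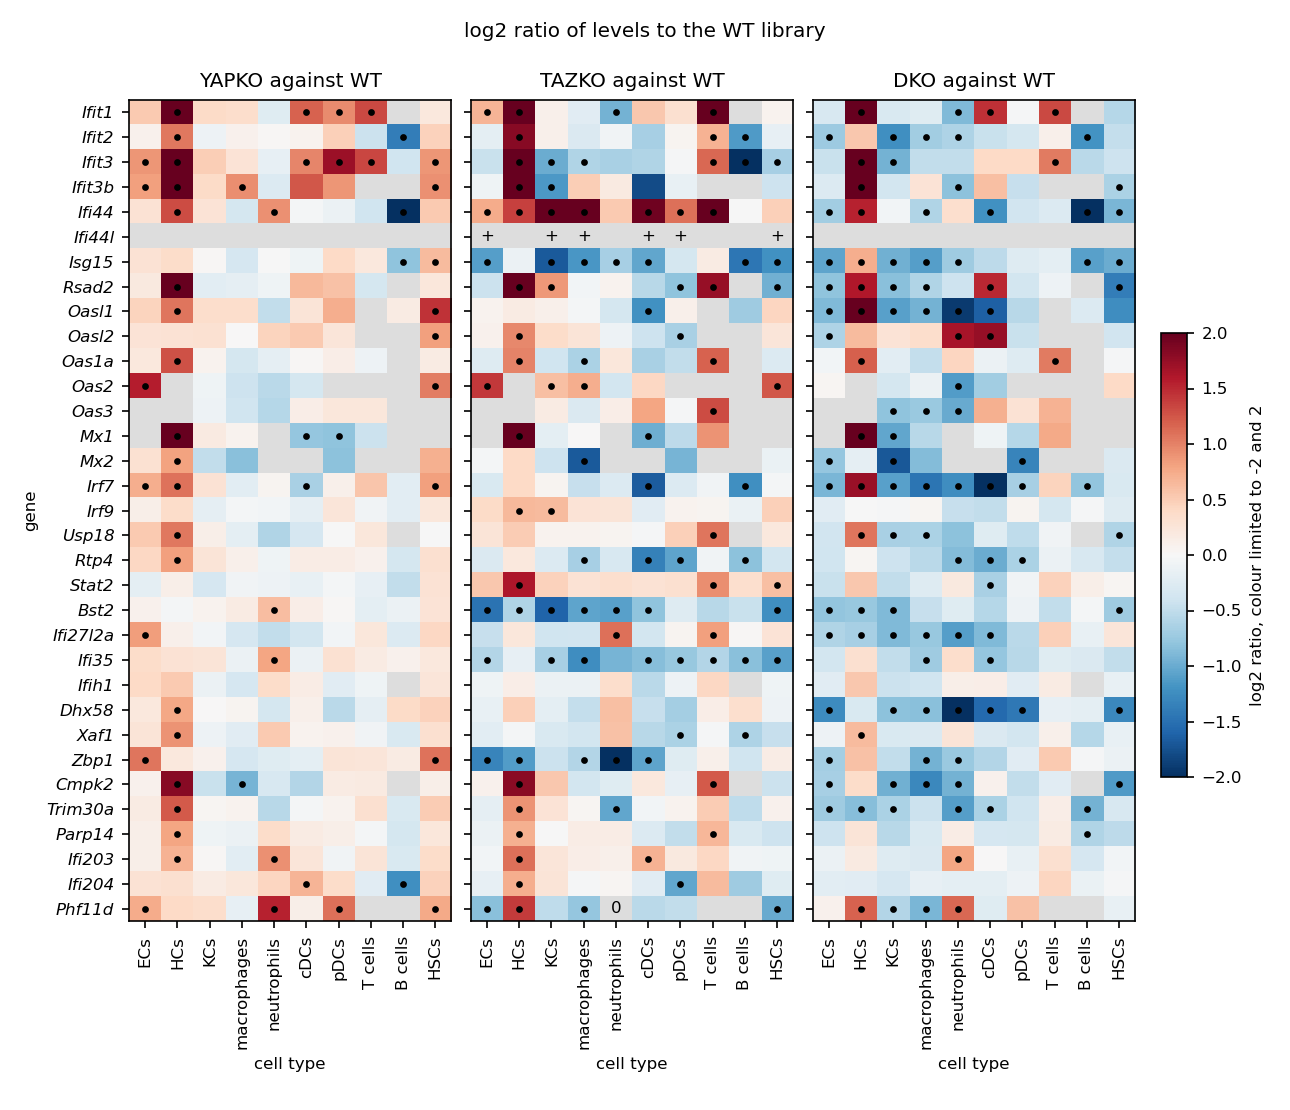
Log2 ratio of each member's level to the WT library, for 33 genes (rows), 10 cell types (columns) and the 3 knock-out libraries (panels). Dots mark ratios past the fold, grey cells had under 50 UMIs, a plus sign marks Ifi44l, with 0 UMIs in WT, and a 0 marks Phf11d, with 0 UMIs in TAZKO neutrophils; red prevails in HCs and blue in the DKO panel outside HCs and T cells.

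In ECs, 7 of the 30 members past the count minimum were higher in YAPKO than in WT and 0 were lower, where 4.7% of all genes were higher and 6.81% lower. The 7 were Ifit3, Ifit3b, Irf7, Zbp1, Ifi27l2a, Oas2 and Phf11d, and the count was 3 with the limits for barcodes read as UMIs and 2 at 2-fold. The summed level was higher by 0.23 on the log2 scale (0.21 to 0.24), and the median ratio over the members was 0.29, against 0.04 over all genes. In TAZKO, 4 members were higher (Ifi44, Ifi44l, Ifit1 and Oas2) and 5 lower (Bst2, Zbp1, Isg15, Phf11d and Ifi35), beside 14.9% and 7.37% of all genes. The summed ratio was -0.40 (-0.43 to -0.38), and without Bst2, Ifi203 and Ifi204 it was -0.04. In DKO, 0 members were higher and 14 lower, beside 6.76% and 7.65% of all genes. Dhx58, Isg15, Irf7, Oasl1 and Rsad2 stood lowest, at log2 ratios of -1.26, -1.06, -0.91, -0.88 and -0.80, the median was -0.44 against 0.05 over all genes, and the summed ratio was -0.54 (-0.56 to -0.51). Centring on the median gene turned the 4 higher and 5 lower members of TAZKO into 2 and 8 and gave 14 lower in DKO. In DKO, 2 members were lower at 2-fold, and types from marker sums gave 3 higher and 11 lower, with Ifi27l2a at 0.64 and Zbp1 at 0.060. Of other markers in ECs, Kupffer markers summed to 126, 306, 51.3 and 131 CPM, macrophage markers to 76.3, 221, 89.96 and 156 CPM, and hepatocyte markers to 6397, 1512, 6203 and 1980 CPM, so the first 2 were highest in YAPKO, as the members were. The summed ratios were 0.21, -0.40 and -0.55 without the cells that carried hepatocyte markers, and the part of the Kupffer and macrophage markers was not tested. The few ECs of the cluster led by Vwf, 37 to 44 cells per library, gave summed ratios of 0.02, -0.74 and -0.65.

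In KCs, the resident macrophages, members were near WT in YAPKO and lower in DKO. In YAPKO, 0 of 32 members were past the fold in either direction, beside 2.71% higher and 6.51% lower among all genes, and the summed ratio was 0.04. In TAZKO, Ifi44, Ifi44l, Rsad2, Irf9 and Oas2 were higher and Isg15, Bst2, Ifit3b, Ifit3 and Ifi35 lower, 5 in each direction of 33 members, beside 20.6% and 7.54% of all genes. The summed ratio was -0.11 (-0.13 to -0.09), without Ifi27l2a, Bst2 and Irf7 it was 0.32, and after centring on the median gene 3 members were higher and 10 lower. In DKO, 0 members were higher and 16 of 32 lower, beside 6.43% and 5.35% of all genes. Their median ratio was -0.57 against 0.03 over all genes, and the summed ratio was -0.72 (-0.75 to -0.70). The lowest were Mx2, Ifit2, Irf7, Oasl1 and Mx1, at -1.70, -1.22, -1.08, -1.08 and -1.04, and 5 members were lower at 2-fold. Kupffer markers summed to 39955, 43959, 33304 and 35209 CPM and hepatocyte markers to 3433, 1392, 3833 and 1694 CPM in these cells.

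The other myeloid cells also had lower sums in DKO. Macrophages had 14 of 32 members lower and 0 higher there, beside 5.2% and 11.2% of all genes, with a summed ratio of -0.62. Their own markers summed to 20316, 20717, 13253 and 9527 CPM, Kupffer markers to 9992, 9454, 6527 and 9665 CPM and endothelial markers to 2624, 2873, 3628 and 3782 CPM, so that in DKO the Kupffer sum was above the macrophage sum. By marker sums alone, 68.9% of these cells were macrophages. Without the cells that carried markers of HCs or ECs, 10 of 32 members were lower in DKO and 1 higher, beside 6.75% and 8.68% of all genes. The summed ratio was then -0.53, and the part of the macrophage and Kupffer markers was not tested. Neutrophils had 14 of 30 lower and 3 higher (Oasl2, Phf11d and Ifi203), beside 5.12% and 24.2% of all genes, with a summed ratio of -0.55, and cDCs had 9 of 31 lower and 3 higher (Oasl2, Rsad2 and Ifit1), beside 4.2% and 11.1%, with a summed ratio of -0.62. In cDCs, 72.7% of which were cDCs by marker sums, their own markers summed to 1254, 1601, 1430 and 1365 CPM, Kupffer markers to 86.6, 174, 45.3 and 224 CPM, T cell markers to 122, 237, 76.3 and 318 CPM, endothelial markers to 580, 1848, 1235 and 802 CPM and markers of dividing cells to 445, 170, 433 and 232 CPM. Macrophage markers summed to 2141, 2810, 1933 and 1895 CPM in cDCs, above the cDC markers in each library. They were lowest in DKO, as the members were. Hepatocyte markers summed to 3488, 2119, 4527 and 4787 CPM. The DKO ratio of cDCs was -0.53 without the cells that carried markers of HCs or ECs, and the part of the other markers was not tested. After centring on the median gene the neutrophil counts were 19 lower and 1 higher, and Ifi203 was at -0.36 with the limits read as UMIs. Neutrophil markers summed to 111478, 86101, 29610 and 56483 CPM and endothelial markers to 5413, 9251, 3810 and 9116 CPM in these cells, and their part in the result was not tested. The pDCs stood closer to WT in DKO, with Dhx58, Mx2, Irf7 and Rtp4 lower and 0 of 31 members higher, beside 3.83% and 6.08%, and a summed ratio of -0.24. Without the cells that scored highest as doublets, 782 of 982 pDCs remained, and the DKO summed ratio was -0.35. Of 29 members, 5 were then higher and 7 lower in DKO, beside 14.7% and 4.92% of all genes. Which single members were past the fold in pDCs thus depended on these cells. Without the cells that carried markers of HCs or ECs the summed ratio was -0.16, with 6 of 22 members lower and 0 higher, beside 4.64% and 6.81% of all genes. Kupffer markers summed to 1699, 1493, 314 and 942 CPM and hepatocyte markers to 4121, 1972, 8094 and 5575 CPM in pDCs, and the part of the Kupffer markers was not tested. In TAZKO, 9 of 33 members were lower and 3 higher in macrophages (5.74% and 19.8% of all genes), 8 of 32 lower and 3 higher in cDCs (5.61% and 17.5%), 6 of 32 lower and 2 higher in pDCs (8.34% and 8.73%), and 5 of 30 lower and 1 higher in neutrophils (3.99% and 14%). Centring gave 14 lower and 2 higher in both macrophages and cDCs. The TAZKO neutrophils were 62 cells, and their summed ratio of 0.22 was -0.17 without the 3 members with the most UMIs. In YAPKO, macrophages had 1 member higher and 1 lower of 32 (4.86% and 5.87%), and pDCs 3 higher and 1 lower of 31 (3.05% and 3.48%). The cDCs had Ifit1, Ifit3 and Ifi204 higher and Mx1 and Irf7 lower of 31 (10.3% and 4.06%). Neutrophils had 5 higher and 0 lower of 30 (23.6% and 6.03%), which became 1 and 9 after centring, since the median of all neutrophil genes was at 0.34.

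HCs had the lowest summed level of the members, and many members were higher there than in WT, as were many of all genes. In YAPKO, 19 of 30 members were higher than in WT and 0 lower, beside 28.9% and 1.5% of all genes. In TAZKO, 17 were higher and 2 lower, Bst2 and Zbp1, beside 46% and 3.33%. In DKO, 13 were higher and 3 lower, Bst2, Ifi27l2a and Trim30a, beside 36% and 4.21%. The share of members higher was above that of all genes in YAPKO and closer to it in TAZKO and DKO. The median gene of HCs was itself higher than in WT, by 0.44, 0.59 and 0.46 on the log2 scale, and the medians over the members were 0.82, 0.72 and 0.56. With doublets left out the TAZKO median over the members was 0.40. Without the HCs that carried myeloid or endothelial markers it was 0.43. The median over all genes in those remaining cells is not given. Relative to the median gene, 12 members were higher and 0 lower in YAPKO, 8 and 5 in TAZKO, and 10 and 6 in DKO. The shares over all genes above are without this centring, so these counts cannot be set against them. The summed ratios were 0.27 (0.24 to 0.31), -0.05 (-0.09 to -0.01) and -0.06 (-0.09 to -0.03), and Bst2, the most abundant member in HCs, was lower in TAZKO and DKO. Centred on the median gene the summed ratios were -0.16, -0.64 and -0.52, so the direction in YAPKO reversed. Uncentred and without the 3 members Bst2, Ifih1 and Isg15 together, the ratios were 0.75, 0.69 and 0.66. Markers of other cells in HCs differed too. Macrophage markers summed to 464, 691, 631 and 459 CPM and endothelial markers to 117, 155, 256 and 104 CPM. Kupffer markers summed to 117, 149, 121 and 109 CPM. The macrophage list includes Fn1 and its sum was not split by gene, so how much of it came from macrophages was not tested. BEC markers summed to 152, 485, 172 and 422 CPM, so the macrophage, Kupffer and BEC sums were highest in YAPKO, as the members were. Without the HCs that carried myeloid or endothelial markers the summed ratios were 0.23, -0.12 and -0.05. The part of the BEC markers was not tested.

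The HCs of the libraries were not of the same make-up. A cluster of HCs with a median of 28247 UMIs per cell and Cyp2f2 among its leading genes held 64.2% of the HC UMIs in WT and 48.0% in TAZKO, and 1.77% and 0.696% in YAPKO and DKO. Within this cluster the members summed to 630, 682, 542 and 603 CPM. In the HC cluster led by glutathione transferase genes they summed to 882, 1081, 825 and 749 CPM, and in the cluster led by Cyp3a11 and Cyp2c29 to 814, 816, 817 and 641 CPM. With the deepest cluster left out, the summed ratio of HCs was 0.01 in YAPKO and -0.33 in DKO, with 18 of 30 members higher and 1 lower in YAPKO and 13 and 5 in DKO. Of all genes, 50.6% and 2.54% were then higher and lower in YAPKO and 54.6% and 4.19% in DKO, and 15 and 10 of the higher members were also higher with all HCs.

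The share of a member's level that HCs reached was uneven. Each member's HC level was set against its level in the other 9 types together, for members with at least 20 UMIs in HCs. All members together stood at 12.6% in WT, 13.7% in YAPKO, 14.3% in TAZKO and 15.9% in DKO. The summed endothelial and Kupffer markers, measured the same way, stood at 1.04% to 3.12% over the libraries. Endothelial markers were at 1.04%, 1.93%, 3.12% and 1.40% in WT, YAPKO, TAZKO and DKO, lowest in WT and highest in TAZKO. Kupffer markers were at 1.49%, 1.42%, 1.66% and 1.29%. In WT, 18 of 25 members were above that range and 7 were not, and the latter were Ifit3, Ifi44, Rsad2, Ifi27l2a, Trim30a, Ifi203 and Ifi204. Of these, Ifit3, Ifi44, Rsad2 and Ifi27l2a, at 1.60%, 2.94%, 1.71% and 1.85%, were above both marker values of WT itself. In DKO, 24 of 30 were above it. Some members called higher in HCs than in WT did not exceed the range. These were Ifi44, Oasl2, Trim30a, Ifi203 and Ifi204 in TAZKO and Ifit2, Trim30a and Ifi203 in YAPKO. Trim30a in YAPKO, at 3.01%, was above both marker values of that library. The part of free RNA from other cells in these levels was not tested. Ifih1, the sensor MDA5, was the highest member in WT at 50.9%, in YAPKO at 71.1% and in TAZKO at 67.2%. Oasl1 was the highest in DKO, at 113.7%, and the only member over 100% in any library. Ifi203, Ifi204, Trim30a and Ifi27l2a did not exceed the range of the markers in any of the 4 libraries, and Ifi203 in WT was below it, at 0.847%.

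**Figure D3:**
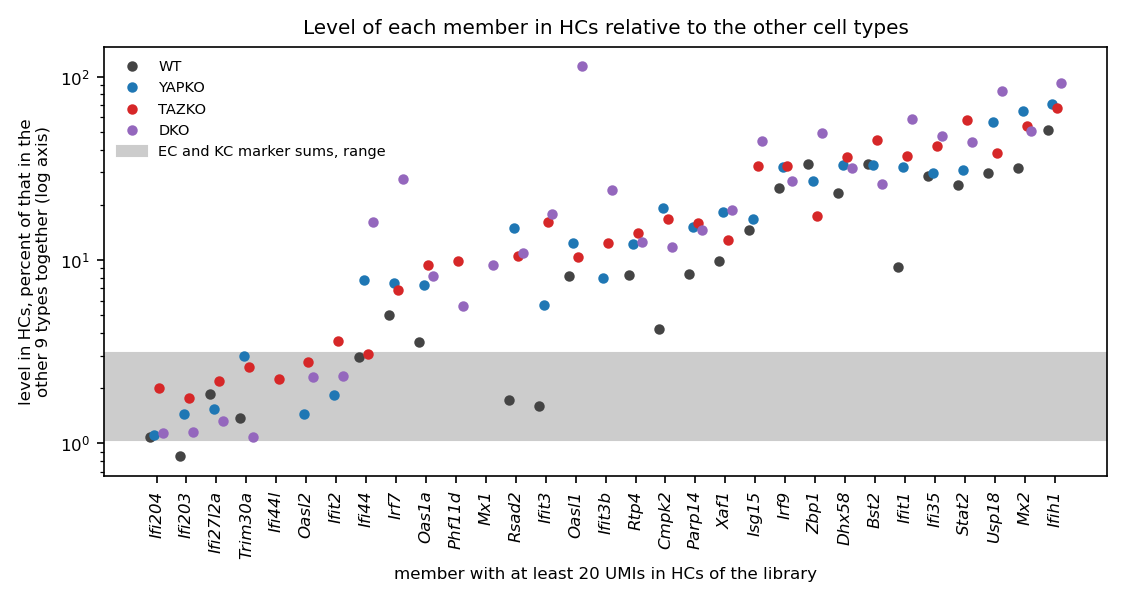
Level of each member in HCs as a percent of its level in the other 9 cell types together (log axis), 1 symbol per library, for members with at least 20 UMIs in HCs. The grey band is the range of endothelial and Kupffer marker sums measured the same way, from 1.04% to 3.12%; Ifih1 and, in DKO, Oasl1 stand farthest above it, and Ifi203 and Ifi204 do not exceed it.

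In T cells, the TAZKO library had more members higher than in WT than the share over all genes, and YAPKO and DKO stood closer to that share. In TAZKO, 12 of 26 were higher (Ifit1, Ifit2, Ifit3, Ifi44, Rsad2, Oas1a, Oas3, Usp18, Stat2, Ifi27l2a, Cmpk2 and Parp14) and only Ifi35 lower, beside 21.4% and 8.38% of all genes, and 9 and 2 after centring on the median gene. The median ratio was 0.65 against 0.19 over all genes, and the summed ratio was 0.48 (0.42 to 0.53). The summed levels were 2070 CPM in WT, 2315 in YAPKO, 2883 in TAZKO and 2443 in DKO. In YAPKO, Ifit1 and Ifit3 were higher and 0 members lower (4.05% and 5.98% of all genes), and in DKO Ifit1, Ifit3 and Oas1a were higher and 0 lower (10.1% and 4.2%), or 3 and 1 after centring. The T cells formed 2 clusters. In the larger, led by Xcl1, Ccl5 and Cxcr6, the members summed to 2138, 2456, 3217 and 2697 CPM. In the smaller, led by Dapl1, Lef1 and Tcf7, they summed to 1947, 2033, 2251 and 1821 CPM, with ratios of 0.06 (-0.04 to 0.16), 0.21 (0.11 to 0.30) and -0.10 (-0.20 to 0.01). In this smaller cluster alone, 1 of 17 members was higher and 2 lower in TAZKO, beside 19.8% and 9% of all genes. The excess of higher members over all T cells was thus not seen in it. Ifit3, higher in DKO over all T cells, was at -0.024 in DKO in this cluster. Markers of other cells also differed between the T cells of the libraries. Hepatocyte markers summed to 10268, 2375, 11898 and 8095 CPM, NK cell markers to 1550, 1230, 720.3 and 499.5 CPM, and plasma cell markers to 5.23, 3.27, 248 and 6.51 CPM. Macrophage markers summed to 381, 480, 569 and 516 CPM and pDC markers to 62.7, 71.2, 131 and 86.6 CPM. Both ranked the libraries as the members did. Without the cells that carried markers of HCs or ECs, 2414 of 2725 T cells remained, with summed ratios of 0.13, 0.46 and 0.25, and in TAZKO 10 of 24 members were higher and 1 lower, beside 18.3% and 8.78% of all genes. The part of the NK cell, plasma cell, macrophage and pDC markers was not tested.

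B cells, the other lymphoid type, had lower sums in the 3 knock-out libraries, at 2323 CPM in WT and 1899, 2043 and 1918 in YAPKO, TAZKO and DKO. The 19 members past the minimum held 0 higher in any comparison and 4, 7 and 6 lower, beside 6.09%, 6.29% and 3.05% of all genes lower and 3.15%, 20.5% and 10.9% higher. Isg15 and Ifit2 were among the lower ones in each, but Isg15 was at 0.10 in YAPKO and 0.22 in DKO with the limits read as UMIs. Without the cells that carried markers of HCs or ECs, 0, 5 and 2 of 13 members were lower and 0 higher in each comparison. Of all genes in these remaining cells, 4.88%, 6.69% and 3.9% were lower and 3.18%, 16% and 7.68% higher. Hepatocyte markers summed to 10415, 5105, 13821 and 11820 CPM in B cells, and T cell markers to 170, 109, 77.2 and 309 CPM. NK cell markers summed to 43.4, 6.28, 5.15 and 6.22 CPM, highest in WT, as the members were. The part of the T cell and NK cell markers was not tested. HSCs had summed levels of 5519, 7322, 4437 and 4280 CPM with 9 of 30 members higher and 0 lower in YAPKO (4.7% and 4.46% of all genes), 3 and 6 of 31 in TAZKO (15.2% and 6.75%), and 0 and 8 of 30 in DKO (8.82% and 5.16%). Centring changed the TAZKO counts to 2 and 8. The 9 members higher in YAPKO were Ifit3, Ifit3b, Isg15, Oasl1, Oasl2, Oas2, Irf7, Zbp1 and Phf11d, of which Oas2 was at -0.037 with types from marker sums, and HSCs carried the endothelial markers given above. Macrophage markers summed to 537, 1139, 768 and 1249 CPM and hepatocyte markers to 4411, 949, 6295 and 3004 CPM in HSCs. The part of these markers was not tested.

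Among the regulators, Irf7, the factor that amplifies type I interferon production, stood lower in DKO than in WT past the fold in 7 of 10 types and higher in HCs. In KCs it was at 647 CPM in WT, 791 in YAPKO, 674 in TAZKO and 305 in DKO, a log2 ratio of -1.08 (-1.17 to -0.9997) in DKO. In ECs it was at 90.6, 150, 73.1 and 48.0 CPM, with 0.72 (0.61 to 0.84) in YAPKO and -0.91 (-1.09 to -0.74) in DKO. The YAPKO library was the highest and the DKO library the lowest in both types. In HCs, Irf7 was at 11.2, 23.8, 14.8 and 37.3 CPM, with the DKO library highest, at 1.73 (1.52 to 1.95). In cDCs it was at 308 CPM in WT and 197, 97.5 and 75.3 in the other libraries, lower past the fold in all 3. Irf7 in T cells was at 38.7, 56.7, 36.7 and 52.4 CPM, with no ratio past the fold.

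Stat2 and Irf9, which act at the response element, were highest in the TAZKO library, Stat2 in all 10 types and Irf9 in 7 of 10. Stat2 in HCs was at 20.1, 21.8, 61.5 and 29.0 CPM, with TAZKO alone past the fold at 1.62 (1.44 to 1.80). In T cells it was at 17.2, 15.4, 33 and 23.8 CPM, with TAZKO at 0.94 (0.37 to 1.54), and in ECs at 76.1, 66.7, 111 and 56.0 CPM, with TAZKO at 0.54, below the fold. Irf9 was past the fold in TAZKO in HCs (19.8, 25.6, 31.1 and 19.7 CPM) and KCs (72.6, 64.2, 112 and 71.3 CPM) and nowhere else. Usp18, the protease that removes ISG15 from proteins and dampens receptor signalling, was higher in HCs in YAPKO and DKO, at 7.68, 16.0, 10.9 and 16.2 CPM, higher in T cells in TAZKO, and lower in DKO in KCs, macrophages and HSCs.

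The Ifit genes, whose products bind viral RNA, did not move as 1 block. Ifit1 in HCs was at 4.21 CPM in WT and 17.2, 19.5 and 19.2 CPM in YAPKO, TAZKO and DKO, log2 ratios of 2.03 (1.67 to 2.41), 2.21 (1.85 to 2.59) and 2.19 (1.85 to 2.54). Ifit1 in T cells was at 12.5, 31.2, 55.6 and 31.3 CPM, with ratios of 1.31 (0.66 to 2.02), 2.15 (1.53 to 2.83) and 1.32 (0.66 to 2.03). In both types WT was the lowest library, and in ECs the levels of 58.7, 84.8, 93.6 and 47.0 CPM put DKO lowest instead. Ifit1 in KCs was at 26.4, 34.5, 28.4 and 21.3 CPM, with no ratio past the fold.

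Ifit3 was higher in YAPKO past the fold in 6 types. In ECs it was at 111, 205, 81.7 and 81.9 CPM, with YAPKO at 0.88 (0.77 to 0.98), and in HSCs at 172, 319, 109 and 129 CPM. In KCs the levels were 147, 207, 73.8 and 76.0 CPM, with TAZKO at -0.99 (-1.18 to -0.80) and DKO at -0.95 (-1.12 to -0.77). YAPKO was highest in ECs and KCs, and also in the HSCs with their endothelial markers. In HCs, Ifit3 was at 1.68, 8.55, 9.11 and 11.5 CPM, with WT lowest and ratios of 2.34, 2.44 and 2.77. Ifit3b in HCs rested on 3 UMIs in WT, 42 in YAPKO, 25 in TAZKO and 112 in DKO, and its DKO ratio was 4.50 (2.91 to 6.79). Ifit3b shares 3′ sequence with Ifit3, in which 6.57% of the 90-base stretches of the last 500 bases are also found in Ifit3b, so UMIs of the pair may be split between them. Ifit2 in ECs was at 172, 183, 150 and 105 CPM and in KCs at 96.5, 90.3, 104 and 41.3 CPM, with DKO at -0.72 (-0.84 to -0.60) and -1.22 (-1.45 to -0.996). In HCs, Ifit2 was at 0.895, 1.86, 3.16 and 1.30 CPM, and its ratio in YAPKO changed sign when the limits were read as UMIs or types were set from marker sums.

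Bst2, which encodes tetherin, and Isg15, a ubiquitin-like modifier, were both lower in TAZKO past the fold in 7 types. For Bst2 these include neutrophils, where the ratio was 0.062 with the limits read as UMIs. Bst2 in ECs was at 1803 CPM in WT, 1924 in YAPKO, 651 in TAZKO and 1041 in DKO, with TAZKO at -1.47 (-1.52 to -1.42) and DKO at -0.79 (-0.83 to -0.76). Bst2 in KCs was at 1036, 1084, 342 and 561 CPM, with TAZKO at -1.60 (-1.68 to -1.52) and DKO at -0.89 (-0.95 to -0.82). The libraries kept the same order in HSCs (1451, 1755, 621 and 887 CPM) and macrophages (842, 948, 403 and 611 CPM), with TAZKO lowest in each. In HCs, Bst2 was at 447, 433, 294 and 265 CPM, with TAZKO at -0.60 and DKO at -0.75. In pDCs, where it was highest, it was at 4319, 4378, 3619 and 4030 CPM, with no ratio past the fold, and in T cells (260, 228, 177 and 185 CPM) and B cells (167, 154, 123 and 162 CPM) none was past it either.

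Isg15 in ECs was at 199, 242, 92.2 and 95.6 CPM, with TAZKO at -1.11 (-1.24 to -0.98) and DKO at -1.06 (-1.18 to -0.93). In KCs it was at 164, 167, 51.2 and 84.2 CPM, with ratios of -1.68 (-1.89 to -1.47) and -0.96 (-1.13 to -0.80). Macrophages (312, 248, 139 and 146 CPM), HSCs (282, 435, 121 and 141 CPM) and neutrophils (460, 457, 291 and 282 CPM) also had WT and YAPKO above TAZKO and DKO. HCs did not: Isg15 was at 28.7, 36.9, 26.5 and 47.2 CPM there, with DKO highest at 0.72 (0.58 to 0.86). In T cells it was at 75.2, 87.3, 84.3 and 65.8 CPM, with no ratio past the fold.

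Ifi44 and its neighbour Ifi44l, which encode related proteins of the interferon response, stood apart in the TAZKO library. Ifi44l had 0 UMIs in every cell of the WT, YAPKO and DKO libraries that was kept, and 2961 UMIs in TAZKO. Its TAZKO level was 227 CPM in KCs (1086 UMIs), 140 in macrophages, 95.3 in ECs (678 UMIs), 88.0 in HSCs, 82.5 in pDCs and 58.2 in both cDCs and neutrophils. It was 6.55 CPM in B cells, 4.30 in T cells and 2.22 in HCs. Against the limit that a count of 0 allows in a library, 3 UMIs, the TAZKO level in ECs was at least 328-fold higher than in WT and in KCs at least 352-fold higher. Ifi44l was the only feature of 11317 with at least 200 UMIs in TAZKO that had no more than 1% of that number in the other libraries together. Without it the TAZKO summed ratio was -0.44 in ECs and -0.16 in KCs. Nexn, 478 kb from Ifi44l and no member, was at 15.4, 15.05, 0.799 and 12.05 CPM in all kept cells. The labels give no strain, and with 1 mouse per genotype a difference in genetic background between the mice cannot be told apart from the genotype or from a difference in interferon response, for Ifi44l and Ifi44 alike.

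Ifi44 was present in all libraries and was higher in TAZKO past the fold in 7 types. In KCs it was at 36.5, 44.3, 534 and 35.2 CPM, a TAZKO ratio of 3.87 (3.65 to 4.10), and in macrophages at 60.7, 47.6, 413 and 39.9 CPM, a ratio of 2.77 (2.45 to 3.10). The TAZKO library stood apart from the other 3 in both. In T cells it was at 3.14, 2.37, 29.0 and 2.61 CPM, with TAZKO at 3.21 (2.04 to 4.69), and in cDCs at 40.2, 39.1, 154 and 17.4 CPM, with TAZKO at 1.94 (1.47 to 2.43). In ECs the gap was smaller, with 188, 231, 317 and 116 CPM, TAZKO at 0.75 (0.66 to 0.84) and DKO at -0.70 (-0.81 to -0.58). Ifi44 in HCs was at 3.26, 8.08, 8.39 and 9.47 CPM, with WT lowest and all 3 ratios past the fold. These levels were 2.94%, 7.77%, 3.08% and 16.1% of those in the other types together. The WT and TAZKO values lay inside the range of endothelial and Kupffer markers over the libraries, 1.04% to 3.12%. In WT itself these markers were at 1.04% and 1.49%, below the Ifi44 value of WT. The part of free RNA from other cells was not tested.

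**Figure D4:**
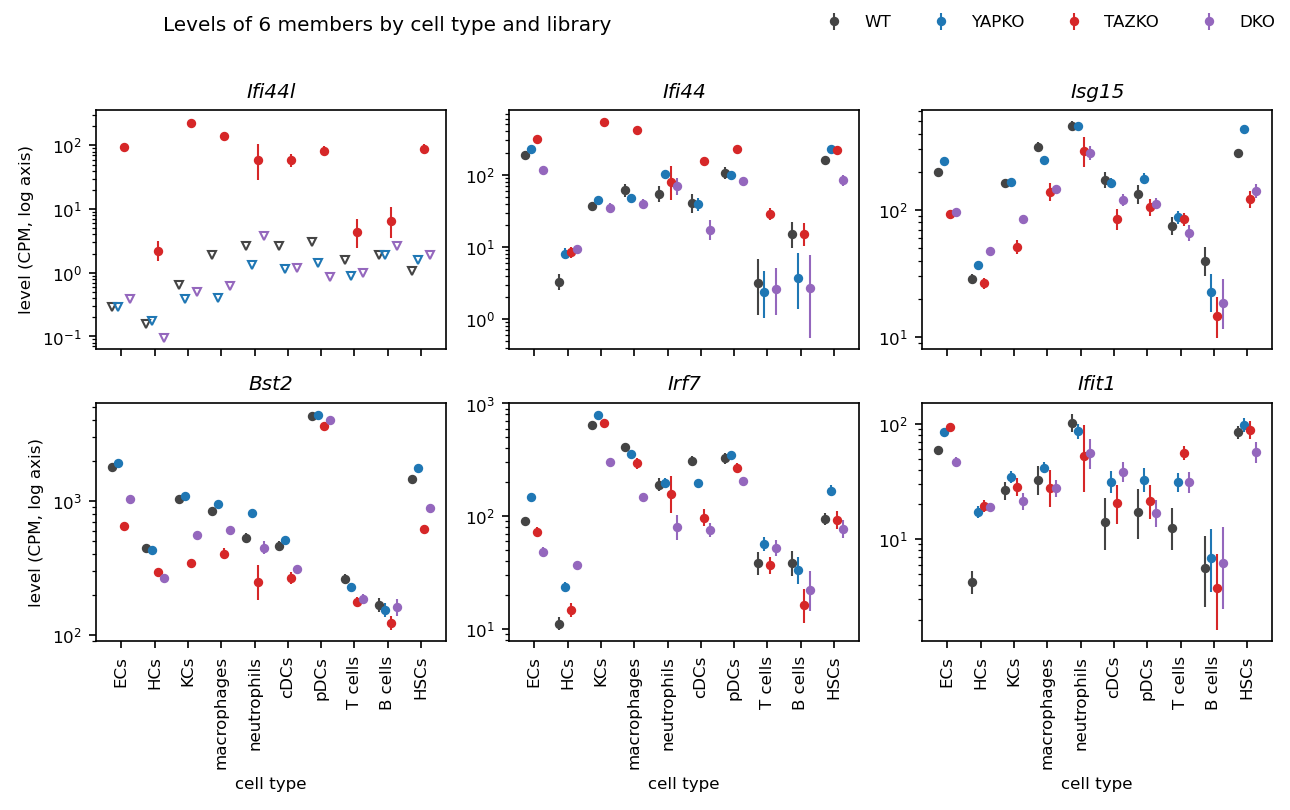
Level of 6 members (Ifi44l, Ifi44, Isg15, Bst2, Irf7 and Ifit1) in 10 cell types, in UMIs per 1000000 on a log axis, with 1 symbol per library. Open triangles are the limit that a count of 0 allows; Ifi44l has a level in the TAZKO library alone, Bst2 is highest in pDCs, and Irf7 is lowest in DKO in ECs and KCs and highest in DKO in HCs.

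The enzymes of the 2′,5′-oligoadenylate family and their relatives, which sense double-stranded RNA, had mixed levels. Oasl1, which limits translation of Irf7, was lower in DKO past the fold in 5 types, with 84.9, 108, 90.7 and 40.0 CPM in KCs and 162, 115, 127 and 42.9 CPM in neutrophils. In HCs the same gene was at 2.89, 6.11, 3.23 and 19.5 CPM, with DKO highest at 2.75 (2.35 to 3.18), while in ECs it was at 16.9, 22.9, 17.9 and 9.22 CPM, with DKO lowest. Oasl2 was higher in DKO in neutrophils (56.7, 77.6, 52.9 and 178 CPM) and cDCs (13.1, 18.8, 9.82 and 44.0 CPM), and lower in ECs (105, 126, 112 and 68.0 CPM). Oas2 in ECs was at 1.74, 5.18, 4.64 and 1.79 CPM, with YAPKO at 1.57 (0.78 to 2.43) and TAZKO at 1.41 (0.54 to 2.33), and in KCs at 51.8, 48.5, 78.1 and 40.7 CPM, with TAZKO at 0.59. Oas3 was nearly absent from ECs, at 0 to 0.384 CPM, and in KCs it was at 92.4, 85.9, 104 and 52.7 CPM, with DKO at -0.81. Oas1a was higher in HCs in the 3 knock-out libraries, at 1.37, 3.32, 2.73 and 3.15 CPM, and in T cells in TAZKO and DKO, and 42.3% of its 90-base stretches at the 3′ end occur in Oas1g, so its counts are uncertain.

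Rsad2, which encodes viperin, and Cmpk2, its neighbour on chromosome 12, were lower in DKO in ECs, KCs, macrophages and HSCs. Rsad2 in ECs was at 178, 203, 132 and 103 CPM and in KCs at 97.1, 83.5, 177 and 54.5 CPM, with TAZKO at 0.87 (0.70 to 1.04) in KCs. In HCs it was at 2.11, 16.4, 9.61 and 6.39 CPM, with WT lowest and ratios of 2.96 (2.48 to 3.48), 2.19 (1.67 to 2.74) and 1.60 (1.11 to 2.13). Cmpk2 in HCs was at 1.89, 6.69, 6.60 and 2.45 CPM, with YAPKO and TAZKO past the fold. The dynamin-like Mx1 and Mx2 were low throughout, with 18.9, 21.3, 16.5 and 9.17 CPM of Mx1 in KCs and 11.4, 8.11, 8.57 and 3.5 CPM of Mx2, both past the fold in DKO. Mx1 had 2 UMIs in WT HCs, 16 in YAPKO, 8 in TAZKO and 38 in DKO, and its DKO ratio of 3.52 had an interval of 1.57 to 6.62.

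Of the sensors of nucleic acids, Ifih1 was past the fold in no type and no library. Its levels were 58.3, 77.3, 54.7 and 49.8 CPM in ECs, 81.8, 75.2, 75.8 and 60.5 in KCs, and 29.4, 42.4, 32.4 and 42.7 in HCs. Dhx58, which encodes LGP2, was lower in DKO in 7 types, with 52.6, 53.1, 45.8 and 29.7 CPM in KCs, a ratio of -0.83 (-1.11 to -0.54), and 14.4, 16.7, 13.1 and 6.02 CPM in ECs, a ratio of -1.26 (-1.76 to -0.78). Zbp1, a sensor of Z-form nucleic acids, was lower in TAZKO in HCs (14.9, 17.3, 6.89 and 22.3 CPM) and ECs (8.03, 16.9, 3.23 and 5.0 CPM), and in ECs it was higher in YAPKO at 1.07 (0.69 to 1.47). Ifi203 and Ifi204, of the family that binds cytosolic DNA, stayed near WT where they were most abundant. Ifi203 in ECs was at 603, 658, 578 and 554 CPM and Ifi204 in KCs at 491, 553, 584 and 388 CPM, with no ratio past the fold.

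The remaining members showed 2 further patterns. Ifi35 was lower in TAZKO past the fold in 8 of 10 types, more than any other member in 1 direction and library, with 90.5, 116, 60.3 and 70.1 CPM in ECs, 116, 106, 48.7 and 70.6 in macrophages, and 80.5, 89.9, 53.4 and 68.4 in T cells. Trim30a, a regulator of innate signalling, was lower in DKO in 6 types, with 220, 246, 194 and 134 CPM in ECs and 301, 309, 364 and 194 CPM in KCs, and 17.8% of its 90-base stretches at the 3′ end occur in Trim30d. Its neighbours Trim5 and Trim12a, which are no members, were also lower in DKO, with Trim12a at 56.9, 69.3, 34.2 and 0.933 CPM in all kept cells and Trim5 at 0 UMIs in DKO, and for Trim30a too the genetic background of the mice cannot be told apart from the genotype. Ifi27l2a, the most abundant member of KCs, was also lower in DKO in 6 types (in ECs not with types from marker sums, at 0.64), at 3294, 3158, 2498 and 1777 CPM in KCs, a ratio of -0.89 (-0.93 to -0.85). In T cells it was at 699, 820, 1240 and 975 CPM, with TAZKO at 0.83 (0.74 to 0.92). Rtp4, a chaperone of receptors, was lower in TAZKO in macrophages, cDCs, pDCs and B cells, but its ratio in pDCs was 1.00 with doublets left out and that in cDCs 0.080 with types from marker sums. Phf11d was higher in YAPKO in ECs (51.7, 86.7, 29.1 and 55.0 CPM), neutrophils, HSCs and pDCs, where its ratio was -1.25 with doublets left out and -0.55 with types from marker sums, and 15.5% of its 90-base stretches occur in other Phf11 genes. Parp14, a mono-ADP-ribosyltransferase, and Xaf1, an inhibitor of XIAP, were near WT in ECs (237, 258, 219 and 178 CPM, and 194, 233, 169 and 180 CPM). Both were higher in YAPKO in HCs (16.3, 28.1, 26.7 and 19.4 CPM, and 15.9, 29.5, 15.5 and 24.8 CPM). Past the fold in HCs were also Parp14 in TAZKO and Xaf1 in DKO, both higher. Elsewhere, Parp14 was higher in TAZKO in T cells and lower in DKO in B cells, and Xaf1 was lower in TAZKO in pDCs and B cells.

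The EC and KC differences were spread over cells. After each cell was thinned to 2000 UMIs, the median EC held 9 member UMIs in WT, 11 in YAPKO, 6 in TAZKO and 6 in DKO, and the 90th percentiles were 18, 21, 15 and 13. The median KC held 16, 16.5, 14 and 10. Median and upper tail thus ranked the libraries alike in ECs, with WT and YAPKO above TAZKO and DKO. The 5% of ECs with the most member UMIs held 13.5%, 12.3%, 16.4% and 15.8% of them, and those of KCs 9.50%, 9.67%, 10.0% and 11.8%. T cells were more uneven, with medians of 3, 3, 4 and 3 and 24.2%, 23.9%, 24.6% and 25.2% in the top 5%. In HCs the median cell held 1 member UMI in every library, and cells with 0 made up 23.0%, 22.8%, 25.7% and 30.9%. Without thinning these shares were 13.5%, 7.69%, 25.5% and 10.1%. Shallower cells were left out, 930 of 2210 HCs in WT and 1683 of 3043 in TAZKO, against 168 and 375 in YAPKO and DKO.

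Other genes of the pathway were counted by the same rule. Of 10 ligand genes, Ifng reached 453 UMIs in all kept cells, Ifnb1 15 UMIs (4 in TAZKO and 11 in DKO) and Ifnk 5, and the other 7 were at 0. Ifng in T cells was at 54.9, 12.8, 48.5 and 27.7 CPM, with YAPKO at -2.10 and DKO at -0.99. Of the 8 measured receptor and kinase genes, 0 were past the fold in ECs in any comparison. Of all genes, 4.7%, 14.9% and 6.76% were higher there and 6.81%, 7.37% and 7.65% lower. In KCs only Tyk2 was past it, higher in TAZKO. The shares there were 2.71%, 20.6% and 6.43% higher and 6.51%, 7.54% and 5.35% lower. With so few genes, these counts say little beyond those shares. In HCs 5 of these 8 genes were higher in YAPKO, 3 in TAZKO (with Ifnar2 lower) and 2 in DKO. Of all genes in HCs, 28.9%, 46% and 36% were higher, so the TAZKO and DKO counts were below that share. Socs3, which blocks cytokine receptors, was higher in YAPKO and lower in TAZKO in ECs, at 20.2, 63.3, 9.84 and 27.0 CPM.

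Targets shared with interferon gamma had mixed levels. Of the 17 measured in ECs, Cxcl10, Gbp3 and H2-Ab1 were higher in YAPKO and 0 lower, 1 was higher and 2 lower in TAZKO, and 1 was higher and 4 lower in DKO (Igtp, Irgm2, Tgtp2 and Cd274). The shares over all genes were 4.7%, 14.9% and 6.76% higher and 6.81%, 7.37% and 7.65% lower. In KCs 0, 6 and 4 of 18 were higher and 2, 2 and 3 lower, beside 2.71%, 20.6% and 6.43% of all genes higher and 6.51%, 7.54% and 5.35% lower. In HCs 6, 7 and 9 of 15 were higher and 0, 0 and 2 lower, beside 28.9%, 46% and 36% and 1.5%, 3.33% and 4.21%. In T cells 0, 4 and 2 of 18 were higher and 0, 1 and 0 lower, beside 4.05%, 21.4% and 10.1% and 5.98%, 8.38% and 4.2%. The chemokine gene Cxcl10 was at 101, 172, 86.6 and 80.2 CPM in ECs. Cxcl9 was at 3.37, 17.7, 60.3 and 23.5 CPM in HCs and at 30.7, 2.49, 22.4 and 83.3 CPM in KCs.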

How the data were processed

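The 4 matrices hold counts of UMIs per gene and barcode, 1 library per genotype, which the authors deposited without normalization. The submitters' processing notes name Cell Ranger 6.0.1 and mm10, and the file headers name Cell Ranger 4.0.0. Barcodes with 500 to 6000 genes and at most 10% mitochondrial UMIs were kept; the limits of 500 and 6000 could also mean UMIs, which was tried as an alternative. Total counts were 66259687 UMIs in WT, 85989454 in YAPKO, 49022089 in TAZKO and 77411746 in DKO before this step. Cells were clustered (2000 variable genes, 20 components corrected by library with a Harmony-like step, 20 neighbours, Leiden resolution 0.4) in scanpy 1.11.5 with leidenalg 0.10.2, with the members and other interferon-linked genes kept out of the variable genes. Clusters were named from 12 or fewer markers per type, and thresholds for naming were set after the clusters were seen. Unnamed clusters of dividing cells and likely doublets were left out, and NK cells and BECs, with under 50 cells in a library, were not compared. Scrublet's automatic threshold called under 0.5% of cells in each library, so doublets stayed in, and an alternative left out the top 8% of scores.

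UMIs were summed per gene, type and library and scaled to 1000000, with exact Poisson intervals, and ratios to WT have exact conditional binomial intervals. The procedure was tested on simulated data. Calculations used Python 3.11.15, numpy 2.4.6, scipy 1.17.1 and pandas 2.3.3, with figures drawn in matplotlib 3.10.9. All 33 members are accounted for. The rule for naming genes took the 5 members with the highest level in a type, up to 5 in each direction per comparison with the largest ratio past the fold, in ECs, HCs, KCs and T cells also Ifit1, Ifit2, Ifit3, Ifi44, Isg15, Irf7, Stat2 and Bst2, and up to 3 pathway genes in each direction per comparison. The members and lists were chosen with earlier results of these data known. Gene positions are from GENCODE release M21 and promoters from RefSeq, both on GRCm38. 1 gene of the pathway lists is not reported here. Other experiments of the study were not analysed here.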

Additional observations from a re-analysis of the deposited data

Results flagged for a closer look

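The direction of the summed level of the 33 members against WT differed between cell types within each knock-out library, and these differences between types were not tested. In YAPKO, 6 types lay above WT and 3 below with intervals that do not include 0, from HSCs at a log2 ratio of 0.41 (0.37 to 0.44) to B cells at -0.29 (-0.36 to -0.22). In TAZKO, 2 types lay above and 8 below, with T cells at 0.48 (0.42 to 0.53) and ECs at -0.40 (-0.43 to -0.38). In DKO, T cells alone lay above WT, at 0.24 (0.18 to 0.29), and 9 types below, with KCs the lowest at -0.72 (-0.75 to -0.70). Under an alternative, the direction reversed for HCs, pDCs and cDCs in YAPKO and for HCs, KCs and neutrophils in TAZKO. It also did for HCs and T cells in DKO, with the values given below.

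Members were also counted in barcodes with fewer than 500 genes, which entered no comparison. Their summed level was 913 CPM in 6237 barcodes of WT, 1259 CPM in 941 of YAPKO, 670.0 CPM in 5465 of TAZKO and 627 CPM in 676 of DKO. The make-up of these barcodes differed too: hepatocyte markers held 9.50%, 6.44%, 8.29% and 4.45% of their UMIs, endothelial markers summed to 273, 363, 228 and 272 CPM and Kupffer markers to 599, 883, 357 and 1197 CPM, with YAPKO highest in members and in endothelial markers. The part of these markers, and of free RNA in droplets without a cell, was not tested.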

How the results depend on the processing

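No paired analysis was possible because each genotype has 1 library. The lower summed level of the members in DKO than in WT in ECs and KCs, and the higher one of ECs in YAPKO, kept their direction under every alternative run for them, with log2 ratios of -0.59 to -0.46, -0.76 to -0.49 and 0.17 to 0.33. The summed ratios of HCs did not, and depended on the 3 most abundant members, on the make-up of the HCs and on the scaling. Of the other comparisons of named genes with alternatives, 4505 stayed within the counting interval, 583 left it in the same direction or below the fold, and 28 of those past the fold changed sign. The cause of a change was not tested unless the alternative's construction gives it. An alternative gave no value for a type that it left with under 50 cells in a library. Depth limits members with few UMIs in HCs, B cells and T cells and all members in the 62 TAZKO neutrophils.

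Without the 3 members with the most UMIs in a type, the summed ratio in YAPKO, TAZKO and DKO was 0.75, 0.69 and 0.66 in HCs, the latter pair reversed, and 0.075, 0.32 (reversed) and -0.49 in KCs. It was 0.33 in YAPKO and -0.039 in TAZKO in ECs, 0.40 in TAZKO and 0.15 in DKO in T cells, and -0.17 (reversed) in TAZKO in neutrophils. Centred on the median gene, the ratios of the 3 comparisons were 0.18, -0.58 and -0.59 in ECs, -0.16 (reversed), -0.64 and -0.52 in HCs, 0.080, -0.35 and -0.76 in KCs, 0.10, 0.29 and 0.10 in T cells, and -0.021 (reversed) in TAZKO neutrophils. With equal weight for each cell they were 0.24 in YAPKO and -0.49 in DKO in ECs, 0.11, -0.13 and -0.27 in HCs, 0.076 in YAPKO and -0.69 in DKO in KCs, and 0.24 in YAPKO T cells. With the limits read as 500 to 6000 UMIs they were 0.17 in YAPKO and -0.46 in DKO in ECs and 0.18, -0.15 and -0.30 in HCs. Totals without mitochondrial and hepatocyte marker genes gave -0.11 for HCs in DKO.

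With cell types set from marker sums alone, the summed ratio was -0.51 for ECs in DKO, 0.19 and 0.053 (reversed) for HCs in YAPKO and TAZKO, 0.065 and -0.14 for KCs in YAPKO and TAZKO, 0.17 for T cells in DKO, and 0.031 (reversed) for cDCs in YAPKO. Without correction by library it was -0.17 and -0.68 for KCs in TAZKO and DKO, and 0.23 and 0.16 for T cells in YAPKO and DKO. With doublets left out it was 0.21 and -0.10 for HCs in YAPKO and TAZKO and -0.082 (reversed) for pDCs in YAPKO, and the median over the members in pDCs in DKO was 0.0063 (reversed). With cells that carried markers of HCs or ECs left out it was 0.21 for ECs in YAPKO, -0.10 for HCs in TAZKO and -0.035 (reversed) for pDCs in YAPKO.

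The following alternatives were chosen after seeing the data. HCs without the deepest cluster gave 0.010 in YAPKO and -0.33 in DKO, and HCs without cells carrying myeloid or endothelial markers gave 0.23 in YAPKO and -0.12 in TAZKO. T cells of the smaller cluster gave 0.062, 0.21 and -0.10, the last reversed, and the members without Ifi44l gave -0.44 in ECs and -0.16 in KCs in TAZKO.

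Counted over types and comparisons, 121 members were higher and 150 lower at 1.5-fold, and 75 and 61 at 2-fold. Of the other pathway genes, 177 were higher and 88 lower, against 103 and 151 centred on the median gene and 91 and 34 at 2-fold. The summed level of HCs was 8.66% of that of KCs, 10.2% with totals without mitochondrial and hepatocyte marker genes and 10.5% with equal weight for each cell.

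Log2 ratios of single genes past the fold changed sign as follows. With the limits read as UMIs, Bst2 in neutrophils was at -0.51 in YAPKO and 0.062 in TAZKO, Ifi203 in neutrophils at -0.84 in YAPKO and -0.36 in DKO, Ifit2 in HCs at -0.42 in YAPKO, and Isg15 in B cells at 0.10 in YAPKO and 0.22 in DKO. With types from marker sums, ECs had H2-Ab1 at 0.87 in TAZKO and Ifi27l2a at 0.64 and Zbp1 at 0.060 in DKO. Ifi44 in macrophages was at 0.23 in DKO, Ifit2 in HCs at -0.13 in YAPKO, Isg15 in B cells at 0.14 in YAPKO and 0.44 in DKO, and Oas2 in HSCs at -0.037 in YAPKO. H2-Ab1 in T cells was at -1.67 in TAZKO, Rtp4 in cDCs at 0.080 in TAZKO, and in pDCs Phf11d was at -0.55 in YAPKO and Rtp4 at 0.15 in DKO. With doublets left out, pDCs had Ifi204 at 0.61, Oasl2 at 0.12 and Rtp4 at 1.00 in TAZKO, Phf11d at -1.25 in YAPKO and Rtp4 at 1.94 in DKO. Cxcl10 in KCs was at -0.10 in DKO without correction by library, Irgm2 in HCs at 0.19 in DKO without the deepest cluster, and Ifit3 at -0.024 and Ifngr1 at -0.17 in DKO in T cells of the smaller cluster.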

Other observations

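The genes in this section were chosen after their values were seen. The search that found Ifi44l in TAZKO alone, for features with at least 200 UMIs in 1 library and no more than 1% of that number in the others together, found 3 in YAPKO, 1 in DKO and 0 in WT. The YAPKO features were the neutrophil granule genes Camp with 6934 UMIs, Ngp with 5456 and Ltf with 1186, against at most 29 in another library, and the DKO feature was the imprinted gene H19 with 611 UMIs against at most 1.

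Genes within 500 kb of Ifi44l differed in which library was highest. In all kept cells, Ifi44 was at 68.1, 76.1, 195 and 36.1 CPM in WT, YAPKO, TAZKO and DKO, Dnajb4 at 21.6, 20.9, 39.3 and 30.6 CPM and Fubp1 at 82.4, 93.1, 112 and 80.8 CPM, with TAZKO highest. Adgrl4 was at 234, 223, 174 and 153 CPM, and Nexn was lowest in the library that alone held Ifi44l. Whether the mice differ in genetic background near these genes was not tested.

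Near Trim30a on chromosome 7, several Trim genes were far lower in DKO than in the other libraries. Trim5 was at 12.2, 13.6 and 7.62 CPM in WT, YAPKO and TAZKO and had 0 UMIs in DKO. Trim12a was at 56.9, 69.3, 34.2 and 0.933 CPM, Trim34a at 32.5, 33.3, 27.7 and 4.08 CPM, and Trim30d at 39.9, 47.5, 31.0 and 9.23 CPM. Trim12c, between Trim12a and Trim30b, was at 33.4, 40.6, 48.5 and 41.4 CPM and did not follow them. Trim30a itself was at 150, 179, 157 and 87.3 CPM. Genetic background was not tested here either, since the labels give no strain.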
